A study of Mus musculus with 3 samples.

Results

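Runx1 encodes a DNA-binding transcription factor that endothelial cells need in order to become blood cells in the embryo, a step called the endothelial-to-haematopoietic transition. Gfi1, a repressor that acts downstream of Runx1, takes part in silencing the endothelial programme, and Ptprc encodes CD45, a surface protein of mature and immature leukocytes. Endothelial cells of the adult heart do not normally make blood and are not known for Runx1. The values below describe the few cells of the largest endothelial cluster of the series, cluster 2, in which Runx1 was counted, and compare them with cells of the same cluster in which it was not.

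The data are single-cell transcriptomes of endothelial cells sorted from the hearts of adult female mice. The cells were either fresh (0 h) or had been kept for 24, 48, 72 or 96 h in aggregates with Mesp1-derived PSCs, PDGFRA+ stromal cells of the E11.5 aorta-gonad-mesonephros region that carry DsRed through a Mesp1-driven Cre, in medium with IL, SCF and Flt3L as the labels name them. Fresh cells had been gated as free of CD41 and CD45, whereas the stated gate after culture took cells with CD31 and VE-cadherin and without PDGFRA, and named neither CD41 nor CD45. All time points were mixed, and 3 such pools (A, B and C) were sequenced, so that fresh and cultured cells and cells of several animals shared a library. Barcodes carry 1 of 3 library suffixes, called libraries 1, 2 and 3 here, which the labels do not tie to a pool, and no cell carries a time point. The groups compared here are therefore 2 classes of cells within each library, not treatments.

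Of 9562 cells in the series, 5396 were assigned to cluster 2 and 5377 of them had at least 5000 unique molecular identifiers (UMIs, counted messenger RNA molecules). Runx1-positive cells were those with more than 0.5 Runx1 UMIs per 10000 UMIs of the cell, and there were 94 of them, with 19 in library 1, 70 in library 2 and 5 in library 3. The 5167 cells with no Runx1 UMI formed the Runx1-negative class, with 1776, 2278 and 1113 cells in the 3 libraries. Another 116 cells had a Runx1 UMI but were so deeply sequenced that they stayed under the threshold, and they were left out. Because the cells were selected on their own Runx1 counts, the Runx1 level is a description and was not tested. As a whole, cluster 2 carried endothelial transcripts, with Cdh5 (VE-cadherin) at 4.29, Kdr (VEGF receptor 2) at 4.94, Pecam1 at 3.30 and the apelin receptor gene Aplnr at 3.84 UMIs per 10000. The arterial connexin gene Gja5 stood at 0.0597 and Ptprc at 0.00591 UMIs per 10000.

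Most of the positive cells were called on a single molecule. Of the 94 cells, 77 had 1 Runx1 UMI, 9 had 2, and 8 had 3 or more, the highest being 2 cells with 9. The gene (ENSMUSG00000022952, GRCm38 chromosome 16, 92601466 to 92826149, minus strand) stood at 0.956, 1.18 and 0.721 UMIs per 10000 in the positive cells of libraries 1, 2 and 3. At the threshold, the lowest cell inside had 0.502 UMIs per 10000, from 1 UMI among 19925, and the highest cell outside had 0.497, from 2 UMIs among 40249. A cell with 1 Runx1 UMI could thus be positive only under 20000 UMIs, and 83 of the 94 cells were.

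The classes differed in depth in the way this rule sets. The median was 16809 UMIs in the positive and 24010 in the negative cells of library 1, 8737 against 14328.5 in library 2, and 17929 against 40124 in library 3. Library 2, the shallowest, held 74.5% of the positive and 44.1% of the negative cells. For this reason a set of 470 negative cells, the 5 nearest in UMIs to each positive cell within its library, served as a second reference, with a median of 10423.5 UMIs against 10433 in all positive cells. In all, 13 barcodes occurred in more than 1 library, which touched 1 positive and 13 negative cells.

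The share of positive cells was 1.75% (95% Clopper-Pearson interval 1.41% to 2.14%, counting error only), with 1.04% in library 1, 2.94% in library 2 and 0.430% in library 3. After each cell had been thinned to 5000 UMIs, 1.32% of cells kept a Runx1 UMI, with 0.709%, 2.18% and 0.516% in the 3 libraries. Library 2 was the highest on both measures. For comparison, 3.77% of the cells of cluster 3 (1.74% to 7.03%; median 23684 UMIs) and 9.96% of those of cluster 4 (7.51% to 12.9%; median 19709) were positive by the same rule, against a median of 22568 UMIs in cluster 2. Neither cluster 3 nor the stromal-like cluster 4 is endothelial by Cdh5, which stood there at 0.640 and 0.563 UMIs per 10000. The share in cluster 2 lay below both, also after thinning (2.93% and 6.25%), so no rate of Runx1 expression is read from it. Clusters 5 and 6, which hold the blood cells, had 69.8% and 83.5% positive cells, and the arterial-like cluster 0 had 9.70%. Cluster 1, endothelial by Cdh5 at 9.93 UMIs per 10000, had 8.46%, and 5.91% after thinning (median 8246 UMIs). Over all cells of cluster 2, Runx1 stood at 0.0188 UMIs per 10000, which is 1.13% of the level in cluster 6. The leukocyte gene Coro1a likewise stood in cluster 2 at 1.08% of its highest blood-cluster level, Tyrobp at 0.467% and the platelet gene Pf4 at 0.0944%.

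**Figure D1:**
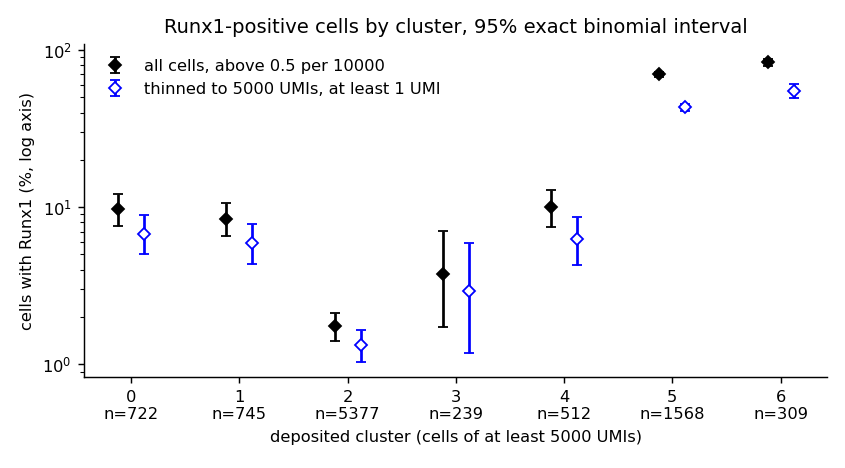
The plot gives the percent of cells called Runx1-positive (vertical axis) in each deposited cluster, with 95% intervals for counting error, before and after thinning to 5000 UMIs. Cluster 2 is the lowest of the clusters at 1.75%, and clusters 5 and 6 are the highest at 69.8% and 83.5%.

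Genes were compared between the classes on sums of UMIs per class and library, with the library as a block, in edgeR's quasi-likelihood test with Benjamini-Hochberg adjustment over 8012 genes. Runx1 was left out. At an adjusted p under 0.05, 61 genes were higher in the positive cells (0.761% of the genes tested) and 9 were lower (0.112%). The median log2 ratio over all genes was -0.0025 after TMM scaling, which centres the ratios. Before adjustment, 635 genes were under 0.05. Over all genes tested, the values of the positive and negative libraries did not overlap for 677 genes on the higher side (8.45%) and 695 on the lower side (8.67%), and among the genes that passed this held for 46 of the 61 higher and for all 9 lower genes. Of the 61 higher genes, 6 reached the minimum level only through the positive sums, with every negative sum under it, and those had to come out higher. Other higher genes, Coro1a and Cxcl2 among them, had a negative sum at that level but also needed positive sums to be tested. Such genes were not counted.

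Cebpb, a transcription factor of myeloid and stress programmes (ENSMUSG00000056501, chromosome 2, 167688915 to 167690418, plus strand), was the higher gene spread most widely over cells among those with a log2 ratio above 2. It stood at 1.63, 0.639 and 0.401 UMIs per 10000 in the positive cells of libraries 1, 2 and 3 and at 0.176, 0.153 and 0.122 in the negative cells. Every positive library lay above every negative one. The log2 ratio was 2.53 (SE 0.27, adjusted p = 1.2e-05). Of 127 Cebpb UMIs, the richest of 39 positive cells held 27. Another held 21, and both were cells of library 1. In library 3, the cell with 4 Runx1 UMIs held 4 Cebpb UMIs, which is most of the value of that library. After thinning, 30.9% of positive, 7.80% of negative and 9.57% of depth-matched negative cells kept a Cebpb UMI. Against the depth-matched cells the log2 ratio was 2.38 (adjusted p = 1.1e-06).

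Some genes of stress and of the immediate early response were higher. Of 8 tested genes of the stress list 3 were higher and none lower (median log2 ratio 0.85), and of 14 tested immediate early and AP-1 genes 3 were higher and none lower (median 0.48, with 13 above 0). No gene of either list passed after thinning, among cells under 20000 UMIs or without the 8 cells of 3 or more Runx1 UMIs, where the medians were 0.46, 0.25 and 0.45 for stress and 0.31, 0.33 and 0.40 for the early response. Fos, a subunit of the AP-1 factor, stood at 0.761, 1.11 and 0.481 UMIs per 10000 in positive and at 0.375, 0.425 and 0.383 in negative cells, a log2 ratio of 1.14 (SE 0.18, adjusted p = 0.0012). Its partner Jun stood at 3.61, 2.85 and 4.89 against 1.98, 2.11 and 2.13, a log2 ratio of 0.76 (SE 0.12, adjusted p = 0.0012). The p53 target Cdkn1a, which encodes the cell cycle inhibitor p21, stood at 0.717, 0.625 and 0.801 against 0.303, 0.349 and 0.309. In these 3 genes the classes did not overlap in any library. Ier3, another early response gene, had a log2 ratio of 1.56, and Hmox1, the heme-degrading enzyme of oxidative stress, one of 0.78. Members of the same lists that did not pass included the flow-responsive factor gene Klf2 (log2 ratio -0.17) and the chaperone gene Hsp90aa1 (-0.05).

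The metallothionein gene Mt1, which binds zinc and other metals, had a log2 ratio of 3.14 (SE 0.42, adjusted p = 2.0e-04), the second largest of the 61. It stood at 2.65, 0.272 and 1.92 UMIs per 10000 in positive cells and at 0.141, 0.153 and 0.126 in negative cells. One cell of library 1 held 106 of its 166 UMIs, or 63.9%. After thinning, an Mt1 UMI remained in 7.45% of positive, 7.16% of negative and 10.9% of depth-matched negative cells. All 24 Mt1 UMIs of library 3 also came from 1 cell.

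Some genes of class I antigen presentation, named by the size of their change and not as a list, were among the 61. H2-K1, a class I heavy chain, stood at 0.869, 0.693 and 0.481 against 0.253, 0.266 and 0.143 UMIs per 10000, a log2 ratio of 1.58 (SE 0.22, adjusted p = 3.6e-04). Its near relative H2-D1 had 0.85, and because the class I genes are alike in sequence their reads may be split uncertainly. B2m, the light chain of class I, stood at 3.0, 1.86 and 2.40 against 1.28, 1.28 and 1.05. Its log2 ratio was 0.93 (adjusted p = 5.9e-04). All 6 H2-K1 UMIs of library 3 came from 1 cell. The same cell held 21 B2m UMIs, which is most of the value of that library. A cell of library 1 held 56 of the 305 B2m UMIs, or 18.4%. Of 4 tested genes on the interferon list, Ifi27 passed (log2 ratio 2.60), but it is 1 of the 6 genes that reached the minimum level only through the positive sums. The other 3 did not pass, among them Bst2 at 0.76 and Rsad2 at -0.67, and the median of the list was 0.71.

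Genes of matrix and membrane included some of the most uneven. Igfbp7, a secreted protein that binds growth factors, stood at 1.54, 1.09 and 5.45 UMIs per 10000 in positive and at 0.403, 0.444 and 0.299 in negative cells (log2 ratio 2.30, SE 0.31, adjusted p = 2.0e-04). Cd63, a tetraspanin of late endosomes, stood at 2.65, 1.25 and 8.01 against 0.836, 0.786 and 0.727 (log2 ratio 1.83). In both genes library 3, with 5 positive cells, gave the highest value, and 1 cell of that library held 30.6% of the Igfbp7 and 29.6% of the Cd63 UMIs. A cell of library 1 held another 29.7% of the Igfbp7 and 17.8% of the Cd63 UMIs. Zeb2, a repressor linked to mesenchymal transition, stood at 1.0, 1.09 and 1.20 against 0.406, 0.553 and 0.422 (log2 ratio 1.16, SE 0.17, adjusted p = 3.6e-04). All 15 Zeb2 UMIs of library 3 came from 1 cell, and without the 8 cells of 3 or more Runx1 UMIs its log2 ratio was 0.85 (adjusted p = 0.58). Fn1, the gene of fibronectin, stood at 2.87, 2.19 and 1.44 against 1.12, 1.44 and 1.14 (log2 ratio 0.86, adjusted p = 0.0021). Zeb2 and Fn1 were the higher members among 9 tested of the stromal and mesenchymal list, whose median was 0.19. Other members included the abundant filament gene Vim, at 0.11, and Tgfb1, at 0.03. The nuclear RNA Malat1 was counted in 93 of the 94 positive cells at 56.0, 54.8 and 103 UMIs per 10000 against 37.1, 39.6 and 38.5 (log2 ratio 0.81, adjusted p = 5.1e-04).

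**Figure D2:**
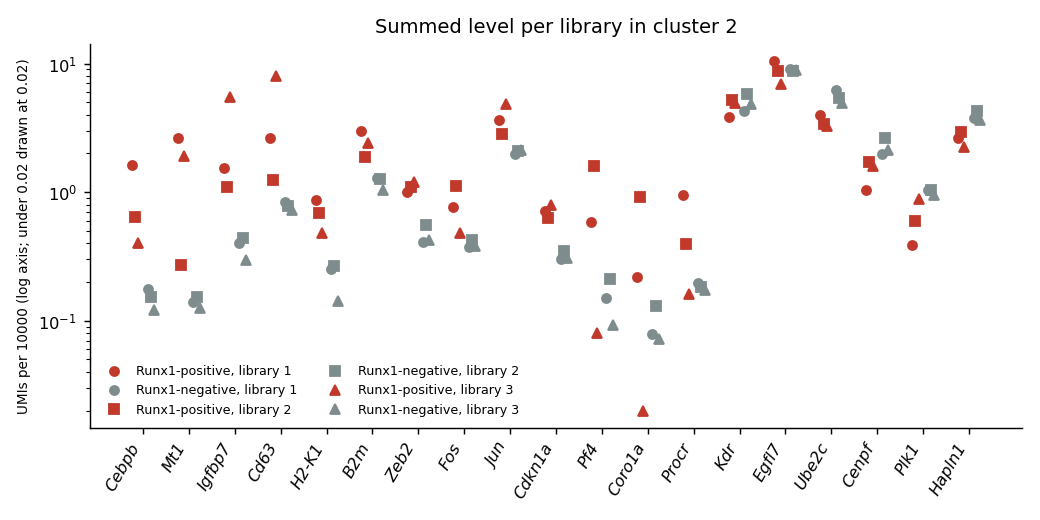
Genes stand side by side along the horizontal axis, and the vertical log axis gives UMIs per 10000 in the summed positive (red) and negative (grey) cells of libraries 1 (circles), 2 (squares) and 3 (triangles), with values under 0.02 drawn at 0.02. Red points lie above grey ones for Cebpb, Fos and Jun and below them for Ube2c and Plk1, and the library 3 point stands out for Igfbp7 and Cd63.

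Some genes of the G2 and M phases were lower in the positive cells. All 18 genes of that list were tested, 5 were lower and none higher, all 18 log2 ratios were below 0 (from -0.89 to -0.25), and the median was -0.50. Ube2c, which encodes the ubiquitin-conjugating enzyme of the anaphase-promoting complex (ENSMUSG00000001403, chromosome 2, 164769898 to 164778822, plus strand), stood at 4.00, 3.41 and 3.29 UMIs per 10000 in positive and at 6.24, 5.39 and 4.94 in negative cells. Its log2 ratio was -0.65 (SE 0.10, adjusted p = 7.7e-04). The mitotic kinase gene Plk1 stood at 0.391, 0.598 and 0.882 against 1.03, 1.04 and 0.943 (log2 ratio -0.89, adjusted p = 0.015). The classes did not overlap for either gene. The kinetochore genes Cenpf and Cenpe had log2 ratios of -0.69 and -0.58, and the kinase gene Aurka had -0.76. Summed over the list, positive cells had 34.5, 38.3 and 36.9 UMIs per 10000 and negative cells 50.0, 50.5 and 46.0.

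Depth-matched negative cells had 51.4, 48.7 and 32.8 UMIs per 10000 for the same list, so that library 3 went the other way against this reference, and 1 gene of the list passed. No gene of it passed after thinning (median -0.42), among cells under 20000 UMIs (-0.20), with any Runx1 UMI (-0.11) or without cells above 10% of a blood-marker level described further on (-0.40). None of 18 S phase genes passed in the main comparison (median -0.01), and Mcm3, a subunit of the replicative helicase, was at -0.00. The other genes lower in positive cells were Smc4 of condensin (-0.64), the cyclin kinase subunit gene Cks2 (-0.59), Hapln1 and Tbx1. Hapln1, a matrix link protein, stood at 3.88 UMIs per 10000 in cluster 2 and at no more than 0.491 in clusters 3 to 6. Within cluster 2 it stood at 2.65, 2.95 and 2.24 in positive and at 3.77, 4.30 and 3.64 in negative cells (log2 ratio -0.56, adjusted p = 0.0061). Tbx1, a transcription factor gene named here after its values were seen, had the largest drop, at -1.17 (adjusted p = 0.018).

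None of the 21 pan-endothelial genes passed in either direction, and their median log2 ratio was 0.02. With any Runx1 UMI taken as positive, 2 of them were lower and the median was -0.06. Egfl7, a vascular matrix gene and the most abundant of them, stood at 10.4, 8.75 and 6.89 UMIs per 10000 in positive and at 9.11, 8.82 and 8.89 in negative cells. Kdr stood at 3.83, 5.22 and 4.97 against 4.26, 5.83 and 4.84. Both genes overlapped between the classes, with log2 ratios of -0.03 (SE 0.10) and -0.13 (SE 0.10). Among 8 tested VEGF and angiopoietin receptor genes none passed (median 0.07). Nor did any of 7 venous genes (median -0.28), among which Aplnr stood at 3.11, 3.04 and 3.29 against 3.72, 3.81 and 3.99 (log2 ratio -0.30, adjusted p = 0.32). Of 14 arterial genes, 13 had a ratio above 0, the median was 0.19, and Gja4, an arterial connexin, passed at 0.69. The median of the list was below 0 among cells under 20000 UMIs (-0.21), after thinning (-0.15), with any Runx1 UMI (-0.12) and with at least 2 (-0.16). Gja4 overlapped between the classes and turned below 0 in 4 of the other settings given in the closing section. Of 12 Notch genes and 15 BMP and TGF-beta genes, none passed (medians 0.13 and 0.03).

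Fabp4, a fatty acid carrier of heart capillaries, differed between the libraries. Positive cells had 0.413, 4.59 and 0.0801 UMIs per 10000, and negative cells 1.39, 1.57 and 0.981. The level was thus higher in positive cells of library 2 and lower in those of libraries 1 and 3, and the log2 ratio of 0.41 (SE 0.34, adjusted p = 0.86) did not pass. Without library 2 it was -1.99 (adjusted p = 2.7e-07). On the capillary list of 9 tested genes the related Fabp5 passed at 0.48, and the median was 0.41. On the inflammatory list of 3 tested genes the chemokine gene Cxcl2 passed, at 1.93, 0.149 and 0 against 0.109, 0.0296 and 0.0435 UMIs per 10000, but 83 of its 100 UMIs lay in 1 cell of library 1. Of its negative sums only that of library 1 was at the minimum level. The inhibitor gene Nfkbia of the same list had a log2 ratio of 0.38, equal after rounding to the list's median.

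Among genes of the endothelial-to-haematopoietic transition and of blood progenitors, 12 of 30 could be tested, 1 was higher and none lower (median 0.31). The gene that passed was Procr, which encodes the endothelial protein C receptor, found on endothelium and on blood stem cells. It stood at 0.956, 0.394 and 0.160 UMIs per 10000 in positive and at 0.197, 0.182 and 0.172 in negative cells (log2 ratio 1.54, SE 0.30, adjusted p = 0.0062), with an overlap in library 3. Of the 75 Procr UMIs, the cells of library 1 with 6 and 3 Runx1 UMIs held 10 and 12. No gene of the list passed after thinning or among cells under 20000 UMIs (medians 0.27 and 0.20). Nor did any without the cells of 3 or more Runx1 UMIs (0.25), in DESeq2 (0.16) or in limma (-0.19). With any Runx1 UMI taken as positive, 1 gene passed, and 2 passed against the depth-matched negative cells. Mycn, a growth regulator, stood at 1.5, 0.503 and 0.160 against 0.464, 0.430 and 0.426 and did not pass (log2 ratio 0.85, adjusted p = 0.18). Cd34 and Lmo2 had log2 ratios of -0.03 and -0.29. None of 12 tested Runx family and cofactor genes passed (median -0.00), among them Hdac1, a corepressor, at -0.04.

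Gfi1 (ENSMUSG00000029275, chromosome 5, 107716657 to 107726036, minus strand) was too sparse for the comparison within cluster 2. It stood at 0.261, 0.0815 and 0 UMIs per 10000 in positive and at 0.000659, 0.00168 and 0.000422 in negative cells. A Gfi1 UMI was found in 8 of the 94 positive cells (8.51%), with 18 UMIs in all, and in 12 of the 5167 negative cells (0.232%), with 12. After thinning the shares were 2.13% and 0.0774%, and of the 470 depth-matched negative cells 1 carried Gfi1. Among the positive cells, 4 of the 8 with 3 or more Runx1 UMIs carried 13 Gfi1 UMIs, and 4 of the other 86 carried 5. In the joint comparison with cluster 0 the gene reached the minimum level only through positive sums, so no test of it is given. In cluster 4, 1 of 512 cells (0.195%) carried Gfi1, and in cluster 5, 10.3% of cells did.

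Much of what was higher came from a few cells. The 8 cells with 3 or more Runx1 UMIs were 8 of 94 cells but held 333147, or 25.2%, of all positive UMIs. For the 61 higher genes they held a median of 35.3% of the UMIs, and more than 50% for 21 genes. A single cell held between 8.67% and 83.0% of the UMIs of a higher gene (median 21.3%), and more than 25% for 24 of the 61. For the 9 lower genes the richest cell held a median of 8.99%.

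When these 8 cells were left out, 5 genes passed, and all 5 were among the 61: Pf4, Malat1, Cxcl2, Cebpb and Lyve1, a receptor gene of lymphatic and macrophage cells that is named here after its values were seen. Of the 61 genes, 52 still reached the minimum level, 51 of those kept their direction, and the median log2 ratio of the 52 went from 1.41 to 0.86. The gene that turned was Serpine2, a protease inhibitor gene, at -0.23, of whose UMIs the 8 cells held 87.8%. Cebpb was at 1.92 (adjusted p = 0.0074), Malat1 at 0.82 and Mt1 at 1.19 (adjusted p = 0.65). Igfbp7 went to 0.72 and Jun to 0.50. The 9 lower genes all kept their direction, none passed, and their median was -0.68 against -0.65 before. Of the 61 genes, 52 also passed against the depth-matched negative cells, and 4 passed among cells under 20000 UMIs.

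**Figure D3:**
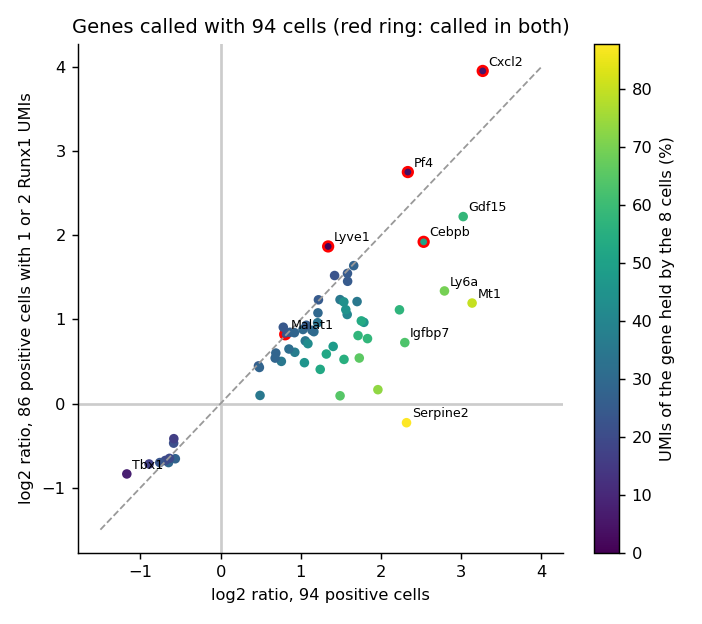
The horizontal axis gives the log2 ratio with all 94 positive cells for the 52 higher and 9 lower genes that could be tested both ways, the vertical axis the log2 ratio with the 86 positive cells of 1 or 2 Runx1 UMIs, and the colour the percent of the gene's positive UMIs in the 8 cells of 3 or more Runx1 UMIs. Ringed points mark the 5 genes that passed in both, and genes with a high percent, such as Mt1 at 3.14 and 1.19, lie far below the diagonal.

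The 8 cells did not share 1 profile. The genes that describe them were picked after their values were seen. All 8 had Cdh5, with 3 to 31 UMIs each, and none had a Ptprc UMI. A cell of library 1 with 9 Runx1 UMIs among 53883 held 154 UMIs of the acute phase gene Saa3, 113 of Ly6a (Sca-1), 106 of Mt1, and 65 and 39 of the interferon-induced genes Ifit3 and Isg15. That cell carried 66.1% of all Ly6a UMIs of the positive class and had 65 UMIs of Igfbp7. Among the clusters, Saa3 and Igfbp7 stood highest in cluster 1, at 10.1 and 14.3 UMIs per 10000. In cluster 4 they stood at 0.267 and 2.37, and in cluster 2 at 0.0311 and 0.390. The same cell also had 57 UMIs of Apod, a lipid carrier gene known from glia and from fibroblasts, which stood in cluster 4 at 0.860 UMIs per 10000 and in cluster 2 at 0.0463. The cell of library 3 with 4 Runx1 UMIs resembled it in this respect, with 72 UMIs of Apod, and had 93 of Cd63, 67 of Igfbp7 and 66 of the collagen gene Col5a2.

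Among the remaining cells, 3 carried Gfi1 together with arterial genes. The cell of library 1 with 6 Runx1 UMIs had 7 UMIs of Gfi1, 28 of Mycn, 23 of Dlk1 and 21 of Gja4. The cell of library 1 with 3 had 4 of Gfi1, 14 of Mycn, 13 of Gja4 and 12 of Procr. The cell of library 2 with 7 had 1 of Gfi1 and 13 each of Gja4 and Gja5, with 10 of Hey1, a Notch target of arteries. The other cell of library 1 with 9 Runx1 UMIs had 35 UMIs of the stress cytokine gene Gdf15, 27 of Cebpb, 4 of the progenitor factor gene Myb, 3 of the myeloid factor gene Spi1 and 1 of Gfi1. The last 2 cells, both of library 2, were shallow, with 5359 and 7278 UMIs, and the second of them had 11 UMIs of Gdf15.

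As a check for blood transcripts in these barcodes, 59 markers of leukocytes, macrophages, granulocytes and megakaryocytes were summed in each cell. The median was 5.73 UMIs per 10000 in positive and 5.39 in negative cells of library 1, 10.8 against 5.88 in library 2, and 4.30 against 5.13 in library 3. The ratios of these medians were 1.06, 1.84 and 0.839, so the excess was seen in library 2, which held 70 of the 94 positive cells. In the depth-matched negative cells the medians were 5.35, 6.73 and 3.65. The median of cluster 5 was 76.7. A level above 10% of that was reached by 57 of 94 positive cells (60.6%), 23.4% of negative and 33.4% of depth-matched cells, and a level above 25% of it by 18 of 94 (19.1%), 1.53% and 3.40%. In library 2 alone, 52 of 70 positive cells (74.3%) and 30.0% of negative cells were above the 10% level.

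**Figure D4:**
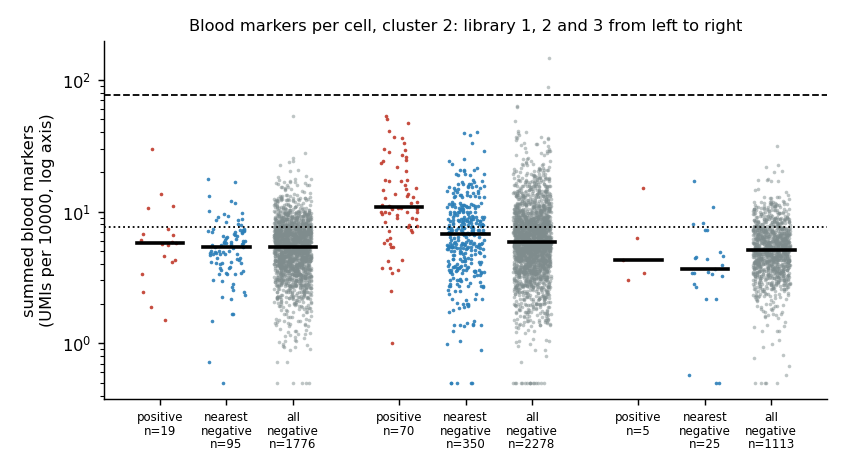
Each point is a cell, and the vertical log axis gives the summed level of 59 blood markers in UMIs per 10000 for positive, depth-matched negative and negative cells of each library, with values under 0.5 drawn at 0.5. Bars are medians, the dashed line is the median of cluster 5 at 76.7 and the dotted line 10% of it, and the positive cells of library 2 sit highest with a median of 10.8.

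Summed over the positive cells of library 2, genes of several blood lineages stood above their level in the negative cells. Whether genes of different lineages lay in the same cells was not tested. Pf4, the platelet chemokine, stood at 1.59 UMIs per 10000 in positive and 0.212 in negative cells of that library. The leukocyte genes Coro1a and Tyrobp stood at 0.910 and 0.611 against 0.131 and 0.0454. The granule enzyme genes Prtn3 and Mpo stood at 0.666 and 0.489 against 0.0425 and 0.0315. The macrophage complement gene C1qb stood at 0.462 against 0.0526. Among positive cells Ptprc was counted only in those of library 2, with 7 UMIs in 4 cells at 0.0951 against 0.0130.

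Most blood markers were too low for the test. Of 15 pan-leukocyte genes 5 were tested, and Coro1a passed with a log2 ratio of 2.14 (SE 0.37, adjusted p = 0.0019) while Lcp1 and Arhgdib were at 0.07 and 0.46 (list median 0.46). Coro1a was at 0.217, 0.910 and 0 in the positive libraries against 0.0793, 0.131 and 0.0724. Of its negative sums only that of library 2 was at the minimum level. Of 15 megakaryocyte genes 2 were tested, Pf4 at 2.34 (SE 0.29, adjusted p = 1.4e-04) and Clec1b at -0.12. Clec1b was counted in 4279 of the 5167 negative cells, and the list median of 1.11 rests on these 2 genes. Of 15 macrophage genes 1 was tested, and it did not pass. Of 14 erythroid and mast cell genes 1 was tested, Hbb-y at 0.08, a globin gene whose reads may be shared with its paralogs. None of 14 granulocyte, 10 lymphoid and 8 germ or pluripotent genes reached the filter. Summed over the granulocyte list, positive cells had 0.17, 1.70 and 0.16 UMIs per 10000 against 0.07, 0.15 and 0.04. No UMI was found in positive cells for Ngp, Camp, Ltf, Fcnb and Retnlg of mature neutrophils, for Hba-a2, Alas2 and Mcpt8, for Cytip, or for 8 of the 10 lymphoid genes, Cd3e and Cd79a among them.

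Leaving out the cells above the 10% level kept 37 positive cells. Then 27 genes were higher and 2 lower, of which 23 and 2 were among the 61 and 9. Cebpb remained at 2.22 (adjusted p = 0.0035), Igfbp7 at 3.20 and Procr at 2.12 (adjusted p = 0.0053), whereas Pf4 turned to -0.72 (adjusted p = 0.90) and Coro1a no longer passed the filter. The cells that held 29.7% and 30.6% of the positive Igfbp7 UMIs stayed in this set, at 3.34 and 3.04 blood-marker UMIs per 10000. So did the cells of library 1 with 6 and 3 Runx1 UMIs, which held 10 and 12 of the 75 Procr UMIs. With the wider 25% level, 58 genes were higher and 12 lower. Scrublet, a doublet caller, marked none of the positive cells and 8 of all 9562 cells. The part of doublets and of free RNA in the Runx1 calls of library 2 was not tested beyond these values.

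The same contrast was made in cluster 0, the arterial-like cluster, with 70 positive cells (28, 28 and 14 by library) and 632 negative cells. There the positive cells were deeper than the negative ones (median 20202.5 against 13523.5 UMIs), 48 of 70 had 3 or more Runx1 UMIs, and 13 had 1. Both clusters come from the same 3 libraries. A difference between the 2 log2 ratios was tested for 8971 genes in edgeR's quasi-likelihood test. The ratio was above that of cluster 0 for 774 genes (8.63%) and below it for 751 (8.37%) at an adjusted p under 0.05. Without cells of 3 or more Runx1 UMIs in both clusters, 98 and 51 genes passed.

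The endothelial and mitotic lists differed most plainly between the clusters. Of 21 pan-endothelial genes, 18 were above cluster 0, where their median log2 ratio was -0.90, against 0.00 in cluster 2 in the same fit. All 19 arterial genes were above cluster 0 (medians -1.09 and 0.31). Within cluster 2 alone 14 of them could be tested (median 0.19). The others, Gja5 among them, reached the minimum level once the sums of cluster 0 were included. The median of 0.31 is therefore a description only. For the G2 and M phase list, all 18 genes were below cluster 0, whose median was 0.91 against -0.51, and for S phase 9 of 18 were (0.59 and -0.02). Without the cells of 3 or more Runx1 UMIs these counts were 6, 3, 3 and 1. Without the cells above the 10% blood level they were 16, 11, 17 and 9, and without library 2 they were 14, 7, 16 and 6.

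The blood progenitor list, of which 23 genes reached the minimum level once the sums of cluster 0 were included, had medians of 1.38 in cluster 0 and 1.26 in cluster 2, with 4 genes above and 5 below cluster 0. Several of these genes are sparse in cluster 2, and a median over genes that pass on high sums is a description only.

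Gja4 stood in cluster 0 at 6.88, 6.35 and 7.41 UMIs per 10000 in positive and 16.4, 14.1 and 14.5 in negative cells, a log2 ratio of -1.11, against 0.68 in cluster 2 in that fit. The difference was 1.79 (SE 0.17, adjusted p = 1.7e-08). Kdr had a log2 ratio of -1.47 in cluster 0 and -0.15 in cluster 2 (difference 1.32, adjusted p = 5.6e-07). Mycn, at 3.6 in cluster 0 and 0.85 in cluster 2, differed in the other direction (difference -2.75, adjusted p = 4.5e-07). Cebpb was higher in positive cells of both clusters, with log2 ratios of 3.28 and 2.56, and the difference of -0.73 (SE 0.30) did not pass (adjusted p = 0.098). By share of cells, 44 of 70 positive cells of cluster 0 (62.9%) carried Gfi1, against 8 of 94 in cluster 2.

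**Figure D5:**
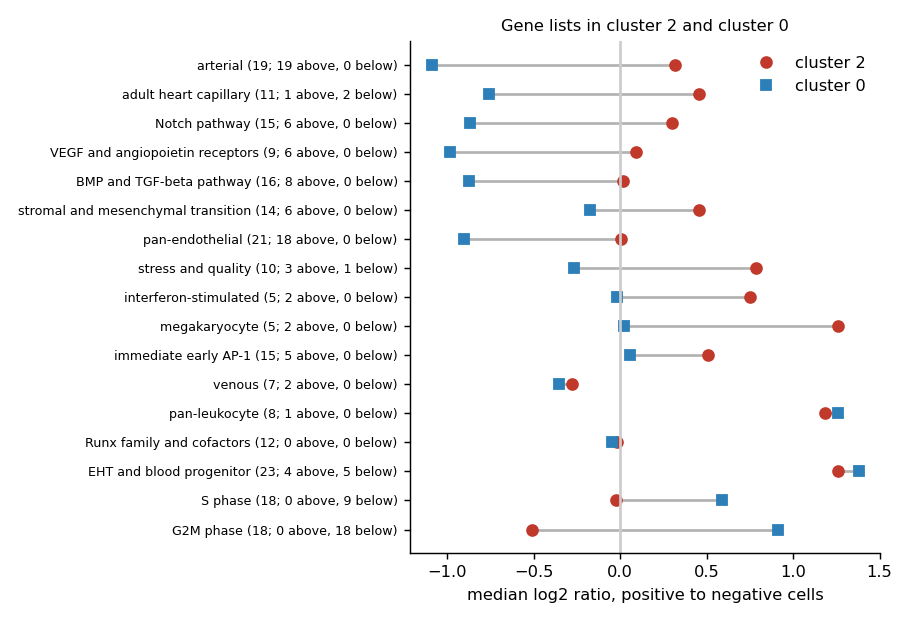
The horizontal axis gives the median log2 ratio of positive to negative cells for each gene list in cluster 2 (red circles) and cluster 0 (blue squares), with the number of genes tested and of genes whose ratio in cluster 2 was above or below that in cluster 0 at the side. Among the lists drawn the gaps are widest for the arterial list (medians 0.31 and -1.09) and the G2 and M phase list (-0.51 and 0.91). Some arterial genes reached the minimum level only with the sums of cluster 0 included.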

How the data were processed

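The submitters' processing notes name mm10, Cell Ranger 3.1.0 and Seurat 3.1.5, and the study's methods state that Cell Ranger aligned and counted the reads and joined the libraries with a correction for batch. Their gene annotation is not given in the sources used here, and names and positions are from GENCODE release M21 on GRCm38. The authors deposited raw UMI counts per gene and cell, a normalized table (not used here) and cluster numbers made with scanpy. Counts of the classes were summed per library and tested with edgeR 4.0.16 (quasi-likelihood, TMM, library as block), requiring at least 0.1 UMIs per 10000 in 3 of 6 sums (of 12 with cluster 0). The block pairs the 2 classes of each library, which share a barcode suffix. DESeq2 1.42.0 and limma 3.58.1 (mean of the cells' levels, pseudocount 0.01) were alternatives. Doublets were searched with Scrublet in scanpy 1.11.5. It called 0.0837% of the cells, too few to count as a working call.

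Members and gene lists were chosen with earlier results of these data known. Named genes are Runx1, Gfi1 and Ptprc, the 10 largest and the 10 most significant changes in each direction with at least 0.5 UMIs per 10000 in the higher class and 1 direction in all libraries, up to 4 genes of each of 23 lists, and 5 per direction for the comparison with cluster 0. The study describes the 3 pools as independent, but no source used here ties a library suffix to a pool. The p-values thus rest on 6 sums from 3 libraries, with variances that edgeR estimates in part jointly over genes. They are not a direct measure of the spread of each gene between libraries. A sign-flip test over 3 pairs cannot go under 0.25. The series held 92498954, 72496908 and 87343180 UMIs in libraries 1, 2 and 3. The scripts were tested on simulated data. A few items are not reported here.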

Additional observations from a re-analysis of the deposited data

Results flagged for a closer look

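The ratio of Runx1-positive to Runx1-negative cells differed between cluster 2 and cluster 0, by a test of the difference itself, for 1525 genes. Listed here are the 5 with the smallest p in each direction. In cluster 2 the log2 ratio was above that in cluster 0 for Sat1, a polyamine-degrading enzyme (0.51 against -2.20, a difference of 2.71), Sparc, a matrix protein (0.26 against -1.58, 1.84), Tm4sf1, an endothelial membrane protein (1.01 against -1.97, 2.98), Sparcl1 (0.58 against -2.61, 3.19) and Cald1, an actin-binding protein (-0.05 against -1.63, 1.58). It was below that in cluster 0 for Hspd1, a mitochondrial chaperone (-0.25 against 1.34, a difference of -1.59), Ube2c (-0.67 against 0.97, -1.64), the cytokine gene Mif (-0.34 against 1.04, -1.39), Dctpp1, which cleans the nucleotide pool (-0.28 against 1.62, -1.90), and Ncl, the gene of nucleolin (-0.37 against 1.05, -1.42). Of these genes Tm4sf1, Ube2c and Mif passed within cluster 2 in that fit, with adjusted p of 9.2e-04, 1.1e-04 and 0.044. Without the cells of 3 or more Runx1 UMIs the difference fell short of the threshold for Cald1 (0.65, adjusted p = 0.096) and Ube2c (-0.71, adjusted p = 0.22) and passed for the other 8. The 2 clusters differ in depth between the classes, in opposite directions, and in Runx1 UMIs per positive cell, and the part of either in these differences was not tested.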

How the results depend on the processing

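The count of 70 genes (61 higher, 9 lower) moved to 38 with a threshold of 1 UMI per 10000, 32 with at least 2 Runx1 UMIs, 11 after thinning, 29 without cells above 10% of the blood level, 16 without cells above the 95th percentile of UMIs, 39 in DESeq2, 241 without a filter on level and 0 in limma on the mean of cells, where 242 genes had an unadjusted p under 0.05. In settings chosen after seeing the data it was 4 for cells under 20000 UMIs and 5 without cells of 3 or more Runx1 UMIs. Leaving out 1 library at a time gave 30 (library 1) to 91 (library 3). With no replicate block it was 51 (49 higher, 2 lower). The share of positive cells, 1.75%, was 3.91% with any Runx1 UMI and 0.364% among cells of at least 20000 UMIs, and 0.801% to 2.12% with 1 library left out. The ratio of the median blood-marker level, 1.78, was 1.13 with any Runx1 UMI, 1.01 with at least 2, 1.08 among cells of at least 20000 UMIs, 1.12 without cells above the 10% level, and 1.08 (without library 2) to 1.90 with 1 library left out. The 1525 genes differing from cluster 0 became 557 at 1 UMI per 10000, 149 without cells of 3 or more Runx1 UMIs, and 740 (library 2) to 1278 (library 3) with 1 library left out. Directions turned for Pf4 (-0.72 without cells above the 10% level), Hbb-y (-0.83 with any Runx1 UMI), Klf2 (0.22 with any Runx1 UMI), Fabp4 (-1.99 without library 2 to 0.91 without library 1) and Gja4 (-0.34 with any Runx1 UMI, -0.93 at 1 UMI per 10000, -0.10 in cells under 20000 UMIs, -0.25 in limma). The cause was not tested. The 94 cells and their 1320923 UMIs limit what could be detected.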
